A study of Mus musculus with 12 samples.

Results

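The response to Nrf2 knockdown was compared between MT∆Ecad, a mesenchymal mouse breast cancer line from a tumour of an MMTV-Neu mouse in which E-cadherin is deleted, and 2 mesenchymal lines from tumours of MMTV-PyMT mice, PyMT-1099 LT and Py2T LT. For each gene the quantity studied is a response difference: the siNrf2 minus siCtl change in MT∆Ecad minus the mean of the same change in the 2 PyMT lines, in log2(CPM + 1) units, where CPM gives the reads of a gene relative to all reads of its library. A positive difference means that the siNrf2 effect was higher in MT∆Ecad. Genes were selected on a measured level, a CPM of at least 5 in all 6 siCtl libraries, so that each line could show a fall, and 8632 of the 24454 genes in the table met this. The genes just inside the limit were Pdcd4, Nthl1 and Tex52, each with a lowest siCtl value of 5.02 CPM, and those just outside were Idnk and Mir703, under the limit but 5.00 CPM when rounded, and Gpt at 4.99 CPM. The limit looks at siCtl only, so a gene that was under 5 CPM in the siCtl libraries and higher with siNrf2 is not among these genes.

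The 6 groups were MT∆Ecad with siNrf2 and with siCtl, PyMT-1099 LT with siNrf2 and with siCtl, and Py2T LT with siNrf2 and with siCtl, with 2 libraries each. All cells were transfected for 48 h with an siRNA from Dharmacon, either against Nrf2 (siNrf2) or a non-targeting one (siCtl), and the controls were therefore transfected too. Each oncogene background rests on cell lines and not on animals: MMTV-Neu is represented by a single line, which is also the one with deleted E-cadherin, so that line, oncogene and E-cadherin loss cannot be told apart in any response difference. In these mice the mouse mammary tumour virus promoter directs the oncogene to mammary epithelium. The series text calls the duplicates biological, and p-values here measure the spread between these cultures.

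NRF2, encoded by Nfe2l2, is a basic leucine zipper transcription factor that KEAP1 marks for degradation in unstressed cells. When it escapes KEAP1 it pairs with small MAF proteins, binds antioxidant response elements and turns on genes for glutathione synthesis, the thioredoxin system, NADPH supply and drug export. Tumour cells often keep it active, which supports their growth under oxidative load.

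Library depth ran from 27088970 to 37070635 reads, and the 3 lines set the libraries apart, with the first 2 principal components of the tested genes holding 49.5% and 37.9% of the variance. The mesenchymal label was checked against markers. Vim was at 5450 to 5530 CPM with siNrf2 and 4970 to 5050 CPM with siCtl in MT∆Ecad, and at 1490 CPM or more in every PyMT library. Cdh1, which encodes E-cadherin, was at 0.315 to 0.639 CPM across the 4 MT∆Ecad libraries, but at 47.8 to 62.1 CPM in PyMT-1099 LT and 12.5 to 18.1 CPM in Py2T LT, and the epithelial gene Epcam reached 30.8 CPM in Py2T LT. Epithelial transcripts thus differed by gene: Epcam was at 0 in all PyMT-1099 LT libraries and at most 0.13 CPM in MT∆Ecad, and the keratin gene Krt14 had 142 and 123 CPM in MT∆Ecad controls but 13.1 to 33.3 CPM in PyMT controls. Ptprc, the pan-leukocyte marker CD45, and Adgre1 were at or near 0 in all 12 libraries, while the myeloid genes Csf1r and Cd14 reached 42.7 and 63.7 CPM in PyMT libraries and 2.12 and 11.1 CPM in MT∆Ecad.

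The knockdown itself did not differ detectably between the lines. Nfe2l2 (chromosome 2, 75675513 to 75704663, GRCm38.p6) had 50.8 and 54.0 CPM with siNrf2 in replicates 1 and 2 of MT∆Ecad, against 208 and 209 CPM with siCtl. PyMT-1099 LT had 25.7 and 33.3 CPM against 113 and 113 CPM, and Py2T LT had 21.9 and 24.5 CPM against 89.7 and 83.6 CPM. Every siNrf2 library lay below every siCtl library of its line, and the level left was 25.2% for MT∆Ecad, 26.1% for PyMT-1099 LT and 26.8% for Py2T LT. The response difference of Nfe2l2 was −0.09 (SE 0.14, 95% interval −0.41 to 0.24, limma adjusted p = 0.86), which bounds a difference in knockdown without showing that there was none. MT∆Ecad started from the highest Nfe2l2 level and also kept the highest level after siNrf2.

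The transcriptome of MT∆Ecad moved further with siNrf2 than those of the PyMT lines. Over the 8632 genes the SD of the siNrf2 change was 0.319 for MT∆Ecad, 0.191 for PyMT-1099 LT and 0.127 for Py2T LT. A change of at least 0.5 in size was seen for 906 genes (10.5%) for MT∆Ecad, 134 genes (1.55%) for PyMT-1099 LT and 27 genes (0.313%) for Py2T LT. The changes of the replicate pairs, siNrf2 minus siCtl of the same replicate number, correlated across genes with r = 0.918 for MT∆Ecad, 0.648 for PyMT-1099 LT and 0.195 for Py2T LT; these are descriptions across genes, which are not independent. Py2T LT thus gave the least repeatable response, and replicate pair 1 of PyMT-1099 LT was closer to pair 1 of Py2T LT (r = 0.706) than to its own pair 2. MT∆Ecad and the mean of the PyMT lines correlated with r = 0.564.

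The response difference was called, at a limma adjusted p under 0.05 over all 12502 tested genes, for 96 genes that were higher in MT∆Ecad (1.11% of the 8632) and 99 that were lower (1.15%). In bulk RNA, fewer cells of a kind and less RNA per cell cannot be told apart. Over all tested genes the shares were 2.87% higher and 1.37% lower. In a fit that pairs siNrf2 and siCtl libraries of the same replicate number within a line, referred to as the paired fit, 857 genes were called higher (9.93%) and 1097 lower (12.7%), and these included all 195 of the unpaired calls. Both MT∆Ecad pair changes lay above all 4 PyMT pair changes for 1743 genes (20.2%) and below all 4 for 2238 genes (25.9%), and all 195 called genes were among them. CPM rescaled by TMM factors gave 95 higher and 64 lower calls, which moved the share of higher calls to 59.7%, against 49.2% without rescaling.

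The called differences lay mainly in the MT∆Ecad change, which is itself part of the contrast that chose these genes. Over all 8632 genes limma called the siNrf2 change higher for 557 and lower for 859 in MT∆Ecad. The counts were 2 and 13 in PyMT-1099 LT, and 0 and 4 in Py2T LT. The siNrf2 change in MT∆Ecad itself was called for 94 of the 96 higher genes and 98 of the 99 lower genes, whereas a change in either PyMT line was called for 0 of the higher genes and 2 of the lower ones, Gclc and Ywhaz in PyMT-1099 LT. For the higher genes the median change was 0.75 for MT∆Ecad, 0.09 for PyMT-1099 LT and −0.09 for Py2T LT. For the lower genes it was −0.73, −0.15 and −0.06 in the same order of lines. The mean of the PyMT lines went the same way as MT∆Ecad for 50 of the 96 higher and 72 of the 99 lower genes, and its change was larger than that of MT∆Ecad for 0 of the 195.

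**Figure D1:**
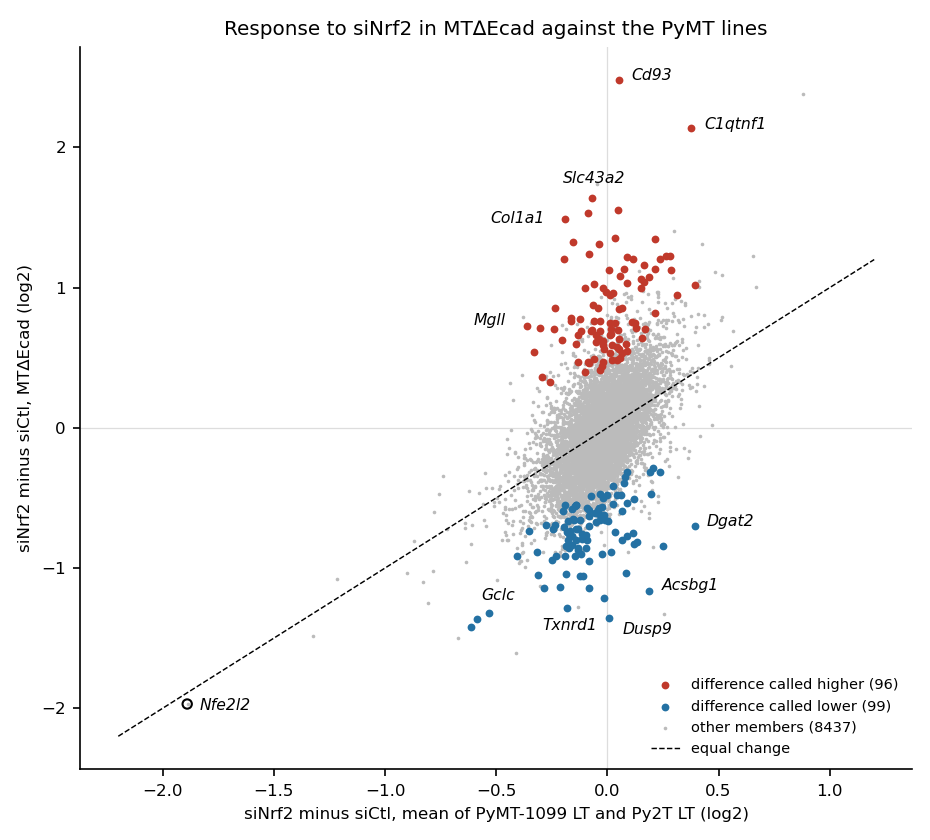
Change with siNrf2 in MT∆Ecad (vertical axis, log2) against the mean change in PyMT-1099 LT and Py2T LT (horizontal axis, log2), 1 point per gene, with the dashed line marking an equal change. Nfe2l2 lies near that line (−1.97 in MT∆Ecad), and the 96 genes called higher and 99 called lower spread along the vertical axis.

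The size of both counts rested on single libraries. Without MT∆Ecad siCtl replicate 1 only 10 higher and 7 lower genes were called, and without MT∆Ecad siNrf2 replicate 2 only 11 and 7. Without MT∆Ecad siCtl replicate 2 the counts were 52 and 33, and without MT∆Ecad siNrf2 replicate 1 they were 52 and 50. Leaving out PyMT-1099 LT libraries gave 39 and 36 (siCtl 1), 43 and 28 (siCtl 2), 53 and 37 (siNrf2 1), and 52 and 69 (siNrf2 2). Without Py2T LT libraries they were 49 and 41 (siCtl 1), 40 and 31 (siCtl 2), 145 and 120 (siNrf2 1), and 97 and 111 (siNrf2 2). Among the genes described here, Cd93, Slc43a2, Epas1, Nrep, Vdr, Parp9, Acsbg1, Txnrd1 and Gclm were called in each of these 12 fits, and Col5a1 in 11. The 2 MT∆Ecad libraries whose removal cut the counts most, siCtl replicate 1 and siNrf2 replicate 2, each ended the call of 45 of the 59 genes described. On whole reads recovered from the CPM, edgeR's quasi-likelihood test called 37 higher and 21 lower genes, all among the 195, and DESeq2 called 120 and 110.

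More differences were called against Py2T LT than against PyMT-1099 LT, which does not itself test the 2 PyMT lines against each other. In the same fit, MT∆Ecad minus Py2T LT called 94 higher and 67 lower genes, and MT∆Ecad minus PyMT-1099 LT 26 and 22; both contrasts use the same MT∆Ecad libraries. Between the 2 PyMT lines, PyMT-1099 LT minus Py2T LT, limma called 0 genes in either direction, with 114 higher and 13 lower at an unadjusted p under 0.05. The paired fit also called 0 and 0 (609 and 304 unadjusted), as did edgeR (59 and 15) and DESeq2 (57 and 13). The SD of that contrast over genes was 0.168, with a median SE of 0.178, against an SD of 0.267 for the response difference with a median SE of 0.154.

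Some of the genes that NRF2 is known to drive fell further in MT∆Ecad. Of 29 NRF2 target genes that met the CPM limit, out of 40 on the list, 6 had a lower called difference and 0 a higher one, and the median difference was −0.28, beside −0.01 over all 8632 genes. The paired fit called 16 lower and 1 higher. The shares over all 8632 genes were 1.15% lower and 1.11% higher, and 12.7% and 9.93% in the paired fit. The median siNrf2 change of the 29 genes was −0.45 for MT∆Ecad, −0.20 for PyMT-1099 LT and −0.15 for Py2T LT. All 6 called genes, which were chosen by their response difference, had a larger fall in MT∆Ecad than in either PyMT line.

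The sequences around antioxidant response letters are shown for the 3 called targets that hold them in a RefSeq promoter window (250 bases before to 50 after an annotated start, GRCm38.p6), since they are the sites such a factor could read. Capitals mark a match to TGACNNNGC or its reverse complement GCNNNGTCA, with 10 bases on each side, on the strand of the gene.
Txnrd1, chr10:82859104-82859132, plus strand, match at −92 from the start: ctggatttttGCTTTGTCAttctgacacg
Gclm, chr3:122245413-122245441, plus strand, match at −134: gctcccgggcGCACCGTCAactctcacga
Srxn1, chr2:152105542-152105570, plus strand, match at 28: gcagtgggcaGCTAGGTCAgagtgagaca
These letters stood in 12 of 31 windows of the NRF2 target genes (38.7%; 23 of the 29 genes had a window), in 12.4% of all 32851 promoter windows and in 14.5% of those of the 8632 genes. Among the called genes they stood in 15 of 98 windows for the higher and 15 of 94 for the lower ones.

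Txnrd1, the cytosolic thioredoxin reductase, had 332 and 321 CPM with siNrf2 in MT∆Ecad, against 859 and 738 CPM with siCtl. PyMT-1099 LT had 396 and 365 CPM against 457 and 421 CPM, and Py2T LT had 741 and 697 CPM against 846 and 759 CPM. MT∆Ecad libraries with siNrf2 lay far below their controls, while the shifts of the PyMT lines were small. The response difference was −1.10 (SE 0.12, limma adjusted p = 0.003), so the siNrf2 to siCtl ratio in MT∆Ecad was 0.465 times that of the PyMT lines. Srxn1, sulfiredoxin, which repairs oxidised peroxiredoxins, had 119 and 120 CPM with siNrf2 in MT∆Ecad, against 261 and 240 CPM with siCtl. Its PyMT-1099 LT values were 123 and 112 CPM against 157 and 135 CPM, and its Py2T LT values 235 and 183 CPM against 223 and 177 CPM. In Py2T LT both replicate pairs of Srxn1 pointed slightly up. Its difference was −0.93 (SE 0.18, limma adjusted p = 0.024).

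Both subunits of glutamate-cysteine ligase, the rate-limiting enzyme of glutathione synthesis, differed. Gclm, the modifier subunit, had 62.6 and 67.9 CPM with siNrf2 in MT∆Ecad, against 141 and 130 CPM with siCtl. The PyMT-1099 LT values were 119 and 125 CPM against 148 and 135 CPM, and those of Py2T LT were 85.4 and 81.4 CPM against 98.8 and 87.4 CPM. All siNrf2 libraries were below the controls of their line, by most in MT∆Ecad, and the difference was −0.86 (SE 0.11, limma adjusted p = 0.0057). Gclc, the catalytic subunit, had 62.0 and 61.2 CPM against 164 and 147 CPM in MT∆Ecad, and 63.1 and 67.0 CPM against 109 and 109 CPM in PyMT-1099 LT. In Py2T LT Gclc had 60.5 and 68.4 CPM against 82.1 and 79.4 CPM. The Gclc changes were graded, −1.32 for MT∆Ecad, −0.74 for PyMT-1099 LT and −0.32 for Py2T LT, and its difference was −0.79 (SE 0.11, limma adjusted p = 0.0069). With siNrf2 the Gclc levels of the 3 lines fell into a narrow range, from 60.5 to 68.4 CPM.

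The other 2 called targets were Esd, S-formylglutathione hydrolase, with a difference of −0.78 (limma adjusted p = 0.031), and Abcc1, an exporter of glutathione conjugates, with −0.69 (adjusted p = 0.014). Gstp1, a glutathione S-transferase (−0.86, adjusted p = 0.037), and the peroxiredoxin Prdx6 (−0.74, adjusted p = 0.026) were also called; they were not on the list and were picked after their values were seen. edgeR did not call Srxn1, Abcc1 and Esd, at adjusted p between 0.053 and 0.092. Against PyMT-1099 LT alone Srxn1, Gclc and Esd were not called (limma adjusted p = 0.13, 0.061 and 0.066), nor was Esd against Py2T LT alone (0.067).

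For other targets no difference was called without pairing. Slc7a11, the cystine importer, had changes of −0.45 for MT∆Ecad, −0.82 for PyMT-1099 LT and −0.43 for Py2T LT, with a difference of 0.17 (95% interval −0.41 to 0.76, limma adjusted p = 0.83). The haem transporter Slc48a1 had changes of −0.69, −0.42 and −0.44, with a difference of −0.26 (−0.73 to 0.21, adjusted p = 0.58). Ferritin heavy chain, Fth1, had changes of −0.63, −0.34 and −0.35, with a difference of −0.29 (−0.70 to 0.12); it was not called without pairing (adjusted p = 0.46) but was in the paired fit (adjusted p = 0.0073), and it has near-identical pseudogene copies that could share its reads. Hmox1, haem oxygenase 1, had 185 and 142 CPM with siNrf2 in MT∆Ecad, against 204 and 150 CPM with siCtl, and its 95% interval of the difference was wide, −0.89 to 0.70. The classical targets Nqo1, Gsta4 and Gstm1 were under the CPM limit in some siCtl library and are not counted here.

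**Figure D2:**
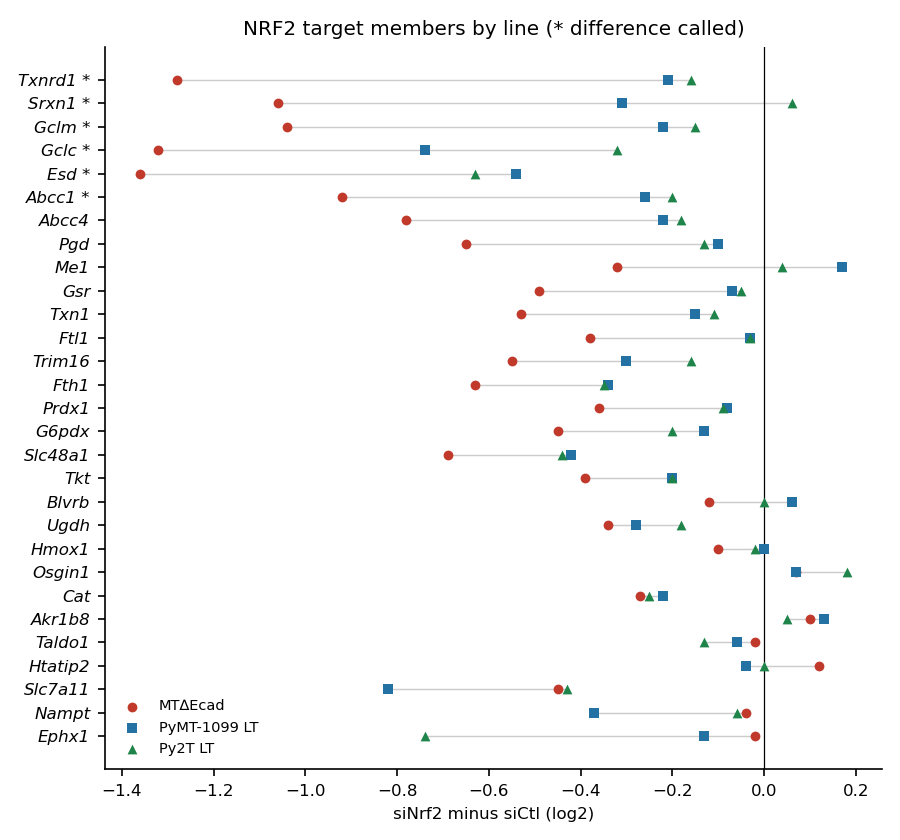
Change with siNrf2 (log2) of the 29 NRF2 target genes that met the CPM limit, in MT∆Ecad (circles), PyMT-1099 LT (squares) and Py2T LT (triangles), sorted by response difference. For the 6 starred genes, whose difference was called, the MT∆Ecad circle lies furthest to the left.

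The 12 largest positive called differences fell on genes of varied function, all with a rise in MT∆Ecad and changes of at most 0.48 in size in either PyMT line. Cd93, a transmembrane lectin-like receptor known from endothelial and myeloid cells, had 58.9 and 87.7 CPM with siNrf2 in MT∆Ecad, against 9.59 and 15.1 CPM with siCtl. In PyMT-1099 LT it had 26.6 and 27.8 CPM against 26.8 and 28.7 CPM, and in Py2T LT 29.2 and 28.7 CPM against 27.8 and 25 CPM. Cd93 was thus the lowest in MT∆Ecad controls and the highest in MT∆Ecad after siNrf2, with a difference of 2.43 (SE 0.26, 95% interval 1.84 to 3.02, limma adjusted p = 0.003), or 5.39-fold. The summed CPM of 8 endothelial markers was 72.2 to 81.2 with siNrf2 and 59.6 to 61.2 with siCtl in MT∆Ecad, while the defining genes Pecam1 and Cdh5 were at most 0.0648 CPM in each of its 4 libraries. It was 143 in both siNrf2 libraries and 106 to 109 with siCtl in PyMT-1099 LT, and 7.2 to 9.66 against 6.72 to 8.03 in Py2T LT, and 1 of the 8 was at 0 throughout. In PyMT-1099 LT Cdh5 made up most of the sum, with 124 and 122 CPM with siNrf2 against 90.6 and 88.0 CPM with siCtl, and Pecam1 had at most 0.205 CPM. The sum of 14 macrophage markers, 3 of them at 0 throughout, was 11.2 to 11.7 with siNrf2 and 9.2 to 12.3 with siCtl in MT∆Ecad, 101 to 113 against 79.1 to 88.1 in PyMT-1099 LT, and 85.7 to 91.3 against 68.3 to 72.0 in Py2T LT.

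C1qtnf1, a secreted C1q and TNF related protein, had 71.0 and 99.8 CPM with siNrf2 in MT∆Ecad, against 13.6 and 24.8 CPM with siCtl. It had 48.6 and 46.3 CPM against 38.5 and 36.2 CPM in PyMT-1099 LT and 32.8 and 25.4 CPM against 22.2 and 20.7 CPM in Py2T LT. C1qtnf1 was higher with siNrf2 in all 6 pairs, and its difference was 1.76 (SE 0.31, limma adjusted p = 0.018). Slc43a2, a transporter of branched-chain and aromatic amino acids, had 135 and 184 CPM against 44.6 and 55.6 CPM in MT∆Ecad. In PyMT-1099 LT its level was 12.3 and 11.4 CPM against 12.2 and 10.4 CPM, and in Py2T LT 4.71 and 4.44 CPM against 5.73 and 5.13 CPM. MT∆Ecad had the most Slc43a2 RNA of the 3 lines under either siRNA, and the difference was 1.71 (SE 0.20, limma adjusted p = 0.0036).

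Epas1, which encodes the hypoxia-inducible factor subunit HIF-2α, had 200 and 236 CPM with siNrf2 in MT∆Ecad, against 66.9 and 83.2 CPM with siCtl. In PyMT-1099 LT Epas1 had 15.0 and 17.8 CPM against 12.8 and 16.1 CPM, and in Py2T LT 5.78 and 6.19 CPM against 8.06 and 7.77 CPM. Its changes were 1.53 for MT∆Ecad, 0.18 for PyMT-1099 LT and −0.35 for Py2T LT, a difference of 1.62 (SE 0.19, limma adjusted p = 0.0035). Vdr, the vitamin D receptor, had 241 and 247 CPM against 87.1 and 104 CPM in MT∆Ecad, and was nearly level in PyMT-1099 LT (16.5 and 13.3 CPM against 13.7 and 13.3 CPM) and Py2T LT (130 and 105 CPM against 130 and 112 CPM). The Vdr difference was 1.32 (SE 0.18, limma adjusted p = 0.0057).

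The others of the 12 were called with differences from 1.13 to 1.68. They were Col1a1, described with the matrix genes, Nrep (1.5), a neuronal regeneration related protein, Pdcd4 (1.48), an inhibitor of translation initiation, the actin-associated synaptopodin gene Synpo (1.40), the kinase-dead Eph receptor Ephb6 (1.34), the myelin protein gene Pmp22 (1.32) and the death receptor gene Tnfrsf21 (1.13). Pdcd4 sits at the CPM limit in Py2T LT, with 3.29 and 5.19 CPM against 5.30 and 5.02 CPM, where log2(CPM + 1) understates changes. Tnfrsf21 had 86.6 and 135 CPM with siNrf2 in MT∆Ecad, against 49.0 and 42.9 CPM with siCtl. The test of edgeR did not call Synpo and Ephb6 (adjusted p = 0.068 and 0.055), and Col1a1, Synpo, Ephb6 and Tnfrsf21 were not called against PyMT-1099 LT alone (limma adjusted p from 0.077 to 0.098).

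**Figure D3:**
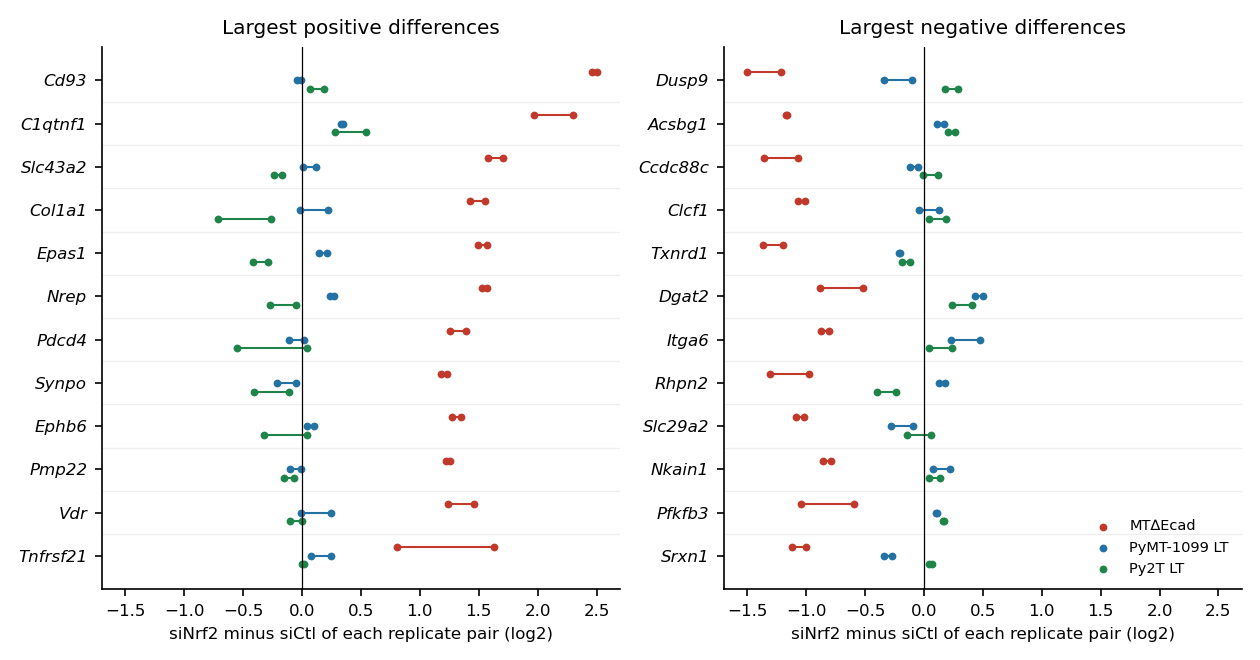
Change with siNrf2 of each replicate pair (log2, horizontal axis) for the 12 largest positive (left) and 12 largest negative (right) called differences, 2 points per line, with MT∆Ecad in red, PyMT-1099 LT in blue and Py2T LT in green. In each gene both MT∆Ecad points lie beyond all 4 PyMT points.

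Among the 12 largest negative called differences were signalling and lipid genes next to the 2 NRF2 targets Txnrd1 and Srxn1. Acsbg1, a long-chain acyl-CoA synthetase, had 7.69 and 6.68 CPM with siNrf2 in MT∆Ecad, against 18.4 and 16.3 CPM with siCtl. It was far more abundant in PyMT-1099 LT (205 and 183 CPM against 182 and 170 CPM) and in Py2T LT (698 and 549 CPM against 584 and 477 CPM). Acsbg1 was lower with siNrf2 in both MT∆Ecad pairs and higher in all 4 PyMT pairs, with a difference of −1.35 (SE 0.18, limma adjusted p = 0.0055). Dusp9, a phosphatase of MAP kinases, had 19.1 and 12 CPM against 45.6 and 35.7 CPM in MT∆Ecad, 43.6 and 36.3 CPM against 46.7 and 46.4 CPM in PyMT-1099 LT and 222 and 177 CPM against 182 and 156 CPM in Py2T LT. Its changes spanned −1.35 for MT∆Ecad, −0.22 for PyMT-1099 LT and 0.23 for Py2T LT, and the difference was −1.36 (SE 0.26, limma adjusted p = 0.024).

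Itga6, the α6 integrin subunit of laminin receptors, had 140 and 120 CPM with siNrf2 in MT∆Ecad, against 258 and 212 CPM with siCtl. In PyMT-1099 LT it had 209 and 239 CPM against 178 and 171 CPM, and in Py2T LT 145 and 176 CPM against 140 and 149 CPM. The gene thus moved down in MT∆Ecad and up in all 4 PyMT pairs, with a difference of −1.09 (SE 0.16, limma adjusted p = 0.01). Of the 8 integrin genes that met the CPM limit it was the single one called, beside 2.26% of all 8632 genes. Itgb3 (1.10) and Itgb7 (−1.20) had differences as large that were called only in the paired fit (adjusted p = 0.002 and 0.0032). The remaining ones of the 12 were Ccdc88c (−1.20), which binds the Wnt mediator Dishevelled, the interleukin-6 family cytokine gene Clcf1 (−1.12), Rhpn2 (−1.06), the nucleoside transporter gene Slc29a2 (−0.95), Nkain1 (−0.95), which interacts with the sodium pump, and Dgat2 and Pfkfb3, described with lipid and sugar metabolism. edgeR did not call Dusp9, Clcf1, Dgat2 and Nkain1 (adjusted p from 0.06 to 0.074). Dusp9, Ccdc88c, Clcf1 and Nkain1 were not called against PyMT-1099 LT alone (limma adjusted p from 0.054 to 0.11), and Clcf1 and Rhpn2 were not called against Py2T LT alone (0.052 and 0.061).

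Some genes of the MHC class I pathway responded more positively in MT∆Ecad. In this pathway interferons induce proteasome subunits that trim antigens, and the tapasin proteins help load the peptides in the endoplasmic reticulum. Of 11 MHC class I and immunoproteasome genes that met the CPM limit, out of 22 on the list, 4 had a higher called difference and 0 a lower one. The paired fit called 9 and 0. Over all 8632 genes 1.11% were called higher, and 9.93% in the paired fit. The median difference was 0.61, beside −0.01 over all 8632 genes. The median changes were 0.69 for MT∆Ecad, 0.08 for PyMT-1099 LT and −0.05 for Py2T LT. Tapbp, tapasin, had 411 and 444 CPM with siNrf2 in MT∆Ecad, against 174 and 190 CPM with siCtl. PyMT-1099 LT had 148 and 120 CPM against 99.8 and 87.7 CPM, and Py2T LT had 83.8 and 66.6 CPM against 75.8 and 71.2 CPM. Its difference was 0.96 (SE 0.17, limma adjusted p = 0.016), and MT∆Ecad had the highest level under either siRNA. Psmb10, an immunoproteasome subunit, had 52.0 and 50.6 CPM against 28.5 and 26.5 CPM in MT∆Ecad, 21.7 and 19.4 CPM against 21.5 and 18.6 CPM in PyMT-1099 LT, and 30.6 and 25.7 CPM against 33.1 and 30.5 CPM in Py2T LT. Both MT∆Ecad libraries with siNrf2 stood above the other 10, and the difference was 0.94 (SE 0.14, limma adjusted p = 0.011). Tapbpl (0.91), a tapasin-related editor, and Psme2 (0.72), a proteasome activator subunit with near-identical copies, were the other 2, and H2-K1 and B2m, the MHC heavy chain and its partner, had differences of 0.48 and 0.29 that were called in the paired fit (adjusted p = 0.013 and 0.026) and not without pairing (0.14 and 0.27). The loading chaperone genes Calr and Pdia3 had differences of 0.05 and 0.04, called in neither fit.

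Of 11 interferon-stimulated effectors that met the CPM limit, out of 41 on the list, 3 had a higher called difference and 0 a lower one. The paired fit called 7 and 0, the median was 0.46, and 10 of the 11 differences were above 0. Ifit2 had changes of −0.41 for MT∆Ecad, −0.49 for PyMT-1099 LT and −0.48 for Py2T LT, with a difference of 0.07 called in neither fit. Of all 8632 genes 1.11% were called higher, and 9.93% in the paired fit. Parp9, an ADP-ribosyltransferase, had 54.5 and 48.5 CPM with siNrf2 in MT∆Ecad, against 26.7 and 24.0 CPM with siCtl. The PyMT-1099 LT values were 25.9 and 27.4 CPM against 23 and 23.6 CPM, and those of Py2T LT were 25.5 and 32.3 CPM against 31.8 and 35.6 CPM. The control levels of the 3 lines lay close together, and with siNrf2 both MT∆Ecad libraries were the highest, giving a difference of 1.01 (SE 0.16, limma adjusted p = 0.011). Its partner ubiquitin ligase Dtx3l differed by 0.65 (adjusted p = 0.029), and Ifi27 by 0.84 (adjusted p = 0.032). Parp9 and Dtx3l overlap on chromosome 16, where Dtx3l ends at 35939027 and Parp9 begins at 35938470, so reads there cannot be assigned unless the counting used strand, which is not given in the sources used here.

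Ddx58, which encodes the RNA sensor RIG-I, had 116 and 113 CPM with siNrf2 in MT∆Ecad, against 55.1 and 52.8 CPM with siCtl, and a difference of 0.89 (SE 0.15, limma adjusted p = 0.014). Its changes were 1.07 for MT∆Ecad, 0.36 for PyMT-1099 LT and 0.01 for Py2T LT. Of 14 interferon receptor, STAT and IRF genes that met the CPM limit, out of 21 on the list, 1 was called, beside 2.26% of all 8632 genes. The paired fit called 8 higher and 0 lower, beside 9.93% and 12.7% of all 8632 genes. The called one was the transcription factor gene Irf1, which differed by 0.74 (adjusted p = 0.028). It had 104 and 124 CPM with siNrf2 in MT∆Ecad, against 66.8 and 84.1 CPM with siCtl, and was slightly lower with siNrf2 in both PyMT lines (−0.15 and −0.14). Irgm1, an interferon-inducible GTPase that alone of its 18-gene list met the CPM limit, differed by 0.58 (adjusted p = 0.024). Cgas, the cytosolic DNA sensor, pointed the other way with −0.49, called in the paired fit (adjusted p = 0.017) and not without pairing (0.22). edgeR did not call Ifi27, Dtx3l, Irf1, Tapbpl and Psme2 (adjusted p from 0.053 to 0.08). Against PyMT-1099 LT alone only Psmb10 of these genes was called (limma adjusted p = 0.043), the others having adjusted p from 0.066 to 0.22, and Irf1 was not called against Py2T LT alone (0.053).

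Matches to interferon response letters in the promoter windows of called genes of these groups are shown because interferon regulatory factors and STAT complexes are known to bind such repeats. Capitals mark 2 copies of GAAA, or on the other strand TTTC, that have any 2 bases between them, on the strand of the gene, with 10 bases on each side, in the RefSeq GRCm38.p6 windows.
Irgm1, chr11:48871425-48871454, minus strand, match at −24: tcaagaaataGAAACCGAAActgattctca
Ddx58, chr4:40239804-40239833, minus strand, match at 2: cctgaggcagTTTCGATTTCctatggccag
A second match in Irgm1 overlapped the one shown. Such repeats were in 4 of 12 windows of the MHC class I and immunoproteasome genes (33.3%), 2 of 11 of the effectors (18.2%), 3.44% of all 32851 windows and 2.69% of those of the 8632 genes. The matches in these lists were in genes whose difference was not called, and no match was found for the called MHC class I, immunoproteasome or effector genes. Among called genes they stood in 7.14% of windows for the higher and 4.26% for the lower ones.

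A few matrix genes also had a higher response in MT∆Ecad. Of 25 collagen and matrix genes that met the CPM limit, out of 52 on the list, 3 had a higher called difference and 0 a lower one. The paired fit called 17 and 1, and the median was 0.30. Of all 8632 genes 1.11% were called higher, and 9.93% in the paired fit. Col1a1, a chain of type I collagen, had 25.7 and 39.3 CPM with siNrf2 in MT∆Ecad, against 8.94 and 12.7 CPM with siCtl. In PyMT-1099 LT it had 244 and 249 CPM against 210 and 252 CPM, and in Py2T LT 18.1 and 20.2 CPM against 21.9 and 33.6 CPM. Col1a1 rose in MT∆Ecad, which had the lowest control level of the 3 lines, and its difference was 1.68 (SE 0.30, limma adjusted p = 0.019). Col1a2, the other chain of type I collagen, had a smaller change of 0.30 in MT∆Ecad. Its difference of 0.42 was called in the paired fit (adjusted p = 0.03) and not without pairing (0.37). Col5a1, of the fibril-nucleating type V collagen, had 1297 and 1382 CPM against 606 and 702 CPM in MT∆Ecad, 15.5 and 14.4 CPM against 12 and 13.1 CPM in PyMT-1099 LT, and 160 and 137 CPM against 153 and 155 CPM in Py2T LT. Its difference was 0.95 (SE 0.13, limma adjusted p = 0.0064). Fn1, fibronectin, had 8807 and 9687 CPM against 5248 and 5690 CPM in MT∆Ecad, and was high in both PyMT lines too, with changes of 0.10 for PyMT-1099 LT and 0.12 for Py2T LT and a difference of 0.65 (SE 0.11, limma adjusted p = 0.016). Without a filter on low values Fn1 was not called (adjusted p = 0.12).

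Tnc, tenascin C, had a difference of 0.98 that was called in the paired fit (adjusted p = 0.00051) and not without pairing (0.22). The summed CPM of 10 fibroblast markers, which include Col1a1, was 1160 to 1310 with siNrf2 and 767 to 907 with siCtl in MT∆Ecad, 426 to 429 and 373 to 434 in PyMT-1099 LT, and 113 to 126 and 130 to 166 in Py2T LT. It thus moved with the matrix genes, and its part in them was not tested. Of the fibroblast genes 1 of 10 was at 0 throughout; of the defining ones, Dcn was at most 0.0315 CPM and Lum at 0 in the MT∆Ecad libraries, whereas Pdgfra had 101 and 116 CPM with siNrf2 and 68.6 and 72.6 CPM with siCtl there. The latent TGF-β binding protein Ltbp2 (0.94, adjusted p = 0.017) was the 1 gene called of 21 in TGF-β signalling, beside 2.26% of all 8632 genes called in either direction. Of 11 matrix proteases and inhibitors and 12 mesenchymal marker genes 0 were called, although the urokinase receptor Plaur (−0.98) and Timp1 (−0.59) were called lower in the paired fit (adjusted p = 0.00064 and 0.0018).

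Of 39 lysosomal genes 2 had a higher called difference and 0 a lower one, with 19 and 1 in the paired fit and a median of 0.21, and 36 of the 39 differences were above 0. Of all 8632 genes 1.11% were called higher and 1.15% lower, with 9.93% and 12.7% in the paired fit, and 4154 differences were above 0. The medians of the change of the lysosomal genes were 0.42 for MT∆Ecad, 0.27 for PyMT-1099 LT and 0.09 for Py2T LT. Scarb2, the receptor LIMP-2 that carries β-glucocerebrosidase to lysosomes, had 227 and 274 CPM with siNrf2 in MT∆Ecad, against 117 and 138 CPM with siCtl. It had 76.8 and 74.2 CPM against 71.8 and 66.4 CPM in PyMT-1099 LT, and 56.4 and 60.9 CPM against 65.2 and 64.1 CPM in Py2T LT. The difference was 0.97 (SE 0.14, limma adjusted p = 0.0084). The protease gene Ctso differed by 0.94 (adjusted p = 0.032), which ended with edgeR (0.064), with a pseudocount of 0.25 (0.055), with no filter on low values (0.054) and against PyMT-1099 LT alone (0.21). The E-box letters CACGTG, which the lysosomal regulator TFEB can bind, stood in 11 of 34 lysosomal windows (32.4%), in 10.8% of those of the 8632 genes and in 7.15% of all windows. They were not found in the windows of the called genes Scarb2 and Ctso, and stood in 9.18% of the windows of all genes called higher.

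Of 47 genes of replication and S phase 8 had a lower called difference and 0 a higher one, with 35 and 0 in the paired fit. Over all 8632 genes 1.15% were called lower, and 12.7% in the paired fit. All 47 differences were below 0 with CPM, with TMM scaling, and in edgeR and DESeq2, beside 4478 of the 8632 genes with CPM, and the median was −0.42. The median changes were −0.59 for MT∆Ecad, −0.19 for PyMT-1099 LT and −0.13 for Py2T LT. Mcm4, a subunit of the replicative helicase, had 191 and 167 CPM with siNrf2 in MT∆Ecad, against 317 and 289 CPM with siCtl. The PyMT-1099 LT values were 335 and 335 CPM against 379 and 363 CPM, and those of Py2T LT were 294 and 335 CPM against 321 and 345 CPM. The 3 lines had similar Mcm4 controls, and the MT∆Ecad libraries with siNrf2 stood below all others, with a difference of −0.64 (SE 0.12, limma adjusted p = 0.022). Pcna, the sliding clamp, had 97.3 and 87.1 CPM against 156 and 150 CPM in MT∆Ecad, 166 and 154 CPM against 181 and 178 CPM in PyMT-1099 LT, and 127 and 127 CPM against 139 and 138 CPM in Py2T LT. Its difference was −0.58 (SE 0.10, limma adjusted p = 0.014). Mcm3 (−0.63), the origin-binding gene Orc1 (−0.61), Chaf1b (−0.57), which encodes a chromatin assembly subunit, the flap endonuclease gene Fen1 (−0.54) and the helicase genes Mcm6 (−0.51) and Mcm7 (−0.46) were the other calls.

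The letters TTTGGCGC, one form of the site of E2F factors, which drive S phase genes, were found in 2 of the called helicase genes and are shown in capitals, on the strand of the gene, with up to 10 bases on each side.
Mcm3, chr1:20820263-20820284, minus strand, match at 38: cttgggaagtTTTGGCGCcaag
Mcm6, chr1:128359735-128359762, minus strand, match at −47: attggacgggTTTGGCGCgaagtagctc
Mcm6, chr1:128359798-128359825, minus strand, match at −110: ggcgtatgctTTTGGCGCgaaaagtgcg
In all, 6 of 44 windows of the replication list held them (13.6%), beside 0.514% of all windows and 1.14% of those of the 8632 genes. Of 42 mitosis genes 0 were called in either direction, and the median difference was −0.18. The paired fit called 13 lower and 0 higher, beside 12.7% and 9.93% of all 8632 genes. Of the 42 differences 36 were below 0 with CPM, 34 with TMM scaling, 38 in edgeR and 41 in DESeq2. Top2a, the decatenating topoisomerase, had a difference near 0 (−0.04), with changes of −0.29 for MT∆Ecad, −0.41 for PyMT-1099 LT and −0.08 for Py2T LT. With edgeR, 1 replication gene kept its call and the adjusted p of Mcm3, Orc1 and Pcna were 0.11, 0.064 and 0.056; TMM scaling also ended the call of Mcm3 (limma adjusted p = 0.064), and Mcm4, Mcm3 and Orc1 were not called against PyMT-1099 LT alone (0.067, 0.12 and 0.083).

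The Myc and ribosome biogenesis list had the most negative median of the lists described, −0.50. Many of its genes are known targets of MYC, and it also holds Myc, Max, Odc1, Srm and Cad. Of 42 genes 8 had a lower called difference and 0 a higher one, and the paired fit called 36 and 0. Over all 8632 genes 1.15% were called lower, and 12.7% in the paired fit. Under each of the scalings 41 of the 42 were below 0, beside 4478 of the 8632 with CPM. The median change was −0.58 for MT∆Ecad, −0.13 for PyMT-1099 LT and −0.01 for Py2T LT. Odc1, ornithine decarboxylase, which starts polyamine synthesis, had 72.6 and 61.5 CPM with siNrf2 in MT∆Ecad, against 140 and 121 CPM with siCtl. PyMT-1099 LT had 111 and 90.0 CPM against 140 and 123 CPM, and Py2T LT had 310 and 276 CPM against 271 and 231 CPM. Odc1 was lower with siNrf2 in MT∆Ecad and PyMT-1099 LT and higher in Py2T LT, and its difference was −0.87 (SE 0.18, limma adjusted p = 0.03). Nhp2 (−0.71), of the small ribonucleoprotein that guides pseudouridine formation, the nucleolar chaperone gene Nolc1 (−0.68), Mybbp1a (−0.67), Noc2l (−0.64), Cad (−0.57), which starts pyrimidine synthesis, Nop56 (−0.56) and Nop16 (−0.52) were the other calls. Myc itself differed by −0.62, called in the paired fit (adjusted p = 0.004) and not without pairing (0.31).

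The E-box CACGTG, which MYC with its partner MAX can bind, stood in 8 of 39 windows of these genes (20.5%), beside 10.8% of the windows of the 8632 genes, and among called genes in 9.57% for the lower and 9.18% for the higher ones. edgeR called 0 of the 42, with an adjusted p of 0.083 for Odc1, 0.099 for Nhp2, 0.076 for Nolc1 and 0.11 for Mybbp1a, and DESeq2 called 9 lower. TMM scaling ended the calls of Nhp2 and Mybbp1a (limma adjusted p = 0.057 and 0.064), and no filter on low values that of Mybbp1a (0.062). Against PyMT-1099 LT alone Odc1, Nhp2, Nolc1 and Mybbp1a were not called (limma adjusted p from 0.098 to 0.26), and against Py2T LT alone neither Nhp2 nor Mybbp1a was (0.05 and 0.051). The 42 genes of cytosolic ribosomal proteins had a median of −0.09 with 0 called, and the paired fit called 2 lower.

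**Figure D4:**
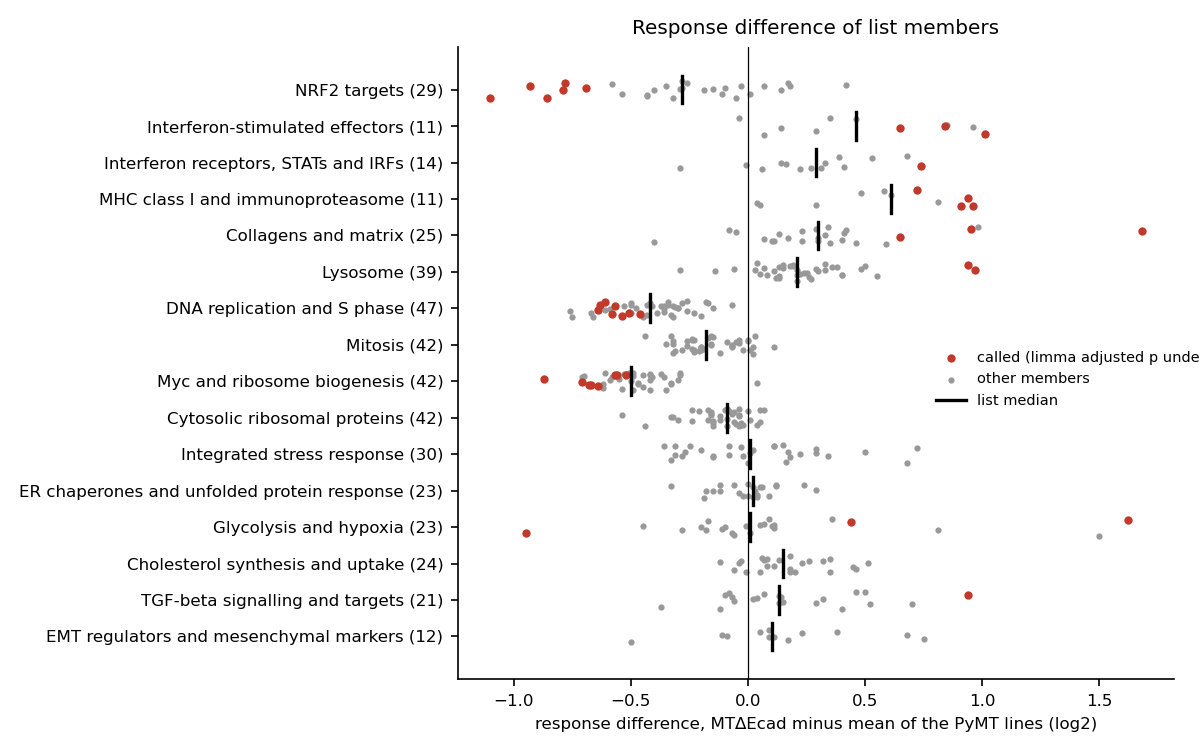
Response difference (log2, horizontal axis) of each gene of 16 lists, with the number of genes that met the CPM limit in brackets, red points for called genes and a black bar for the list median. The replication list and the Myc and ribosome biogenesis list lie left of 0 (medians −0.42 and −0.50), and the MHC class I list lies right of it (0.61).

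Opposite responses of at least 0.3 in size were rare among called genes. A change of that size in all 3 lines, with MT∆Ecad opposite to both PyMT lines, was found for 2 called genes, and both act on neutral lipid. The limit is strict for Py2T LT, where the SD of the change was 0.127. With no limit on size, the mean of the PyMT lines was opposite to MT∆Ecad for 46 of the 96 higher and 27 of the 99 lower genes. How many of all 8632 genes meet the limit was not counted. Dgat2, which makes triglyceride, had 5.71 and 4.24 CPM with siNrf2 in MT∆Ecad, against 8.62 and 8.68 CPM with siCtl. It had 10.2 and 8.98 CPM against 7.32 and 6.06 CPM in PyMT-1099 LT, and 10.3 and 9.04 CPM against 8.60 and 6.58 CPM in Py2T LT. Dgat2 fell in MT∆Ecad and was higher in all 4 PyMT pairs, with a difference of −1.10 (SE 0.20, limma adjusted p = 0.021). Mgll, monoacylglycerol lipase, went the other way, with 57.5 and 56.0 CPM against 33.5 and 34.3 CPM in MT∆Ecad. In PyMT-1099 LT it had 15.6 and 13.9 CPM against 21.4 and 16.6 CPM, and in Py2T LT 6.81 and 5.27 CPM against 9.34 and 7.15 CPM. Its difference was 1.09 (SE 0.20, limma adjusted p = 0.021), which ended with edgeR (0.053) and against PyMT-1099 LT alone (0.062). The changes of both genes in the PyMT lines were not called. The summed CPM of 6 adipocyte markers was 114 to 180 with siNrf2 and 92 to 110 with siCtl in MT∆Ecad, and at most 2.09 in any PyMT library. Their part in these differences was not tested, and the defining marker Adipoq was at 0 in all 4 MT∆Ecad libraries.

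Sugar metabolism and hypoxia genes were split. Of 23 genes 2 had a higher called difference, Epas1 and P4ha1 (0.44), a collagen prolyl hydroxylase subunit, and 1 a lower one, and the median was 0.01. Over all 8632 genes 1.11% were called higher and 1.15% lower. Pfkfb3, which makes the activator of phosphofructokinase, had 8.45 and 9.24 CPM with siNrf2 in MT∆Ecad, against 18.4 and 14.4 CPM with siCtl. It was slightly higher with siNrf2 in PyMT-1099 LT (95.5 and 86.9 CPM against 89.0 and 80.7 CPM) and Py2T LT (16.6 and 15.5 CPM against 14.7 and 13.8 CPM), and its difference was −0.95 (SE 0.16, limma adjusted p = 0.014). None of the enzymes of the glycolytic chain itself was called without pairing: Ldha, lactate dehydrogenase, had a difference of −0.01, the enolase gene Eno1 −0.18, the pyruvate kinase gene Pkm −0.17, and the phosphofructokinase gene Pfkl 0.36, called in the paired fit (adjusted p = 0.014). Txnip, the thioredoxin inhibitor, had positive changes throughout, 2.38 for MT∆Ecad, 1.04 for PyMT-1099 LT and 0.72 for Py2T LT, and its difference of 1.5 was called in the paired fit (adjusted p = 0.0029) and not without pairing (0.055). P4ha1 was not called by edgeR (0.092) or against PyMT-1099 LT alone (limma adjusted p = 0.17).

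Krt14, a basal epithelial keratin, fell in MT∆Ecad, with 47.4 and 50.1 CPM with siNrf2 against 142 and 123 CPM with siCtl. It was also lower with siNrf2 in PyMT-1099 LT (9.83 and 7.97 CPM against 14.4 and 13.1 CPM) and Py2T LT (19.9 and 20.3 CPM against 33.3 and 31.1 CPM). Its difference was −0.80 (SE 0.15, limma adjusted p = 0.02), the 1 call among 12 epithelial genes, and ended with edgeR (0.064). Single calls in this list and the next stand beside 2.26% of all 8632 genes called in either direction. Arhgef17 (0.80, adjusted p = 0.048), a guanine nucleotide exchange factor, was the 1 call among 22 YAP and TEAD target genes, and it ended with edgeR, TMM scaling, a pseudocount of 0.25, no filter and against either PyMT line alone (adjusted p from 0.056 to 0.15).

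For other stress programmes limma called 0 genes without pairing, beside 2.26% of all 8632 genes. In lists this short 0 calls is near that share. The paired fit called 9.93% of all 8632 genes higher and 12.7% lower. The programmes were the integrated stress response (30 genes, median 0.01, 3 higher and 7 lower in the paired fit), endoplasmic reticulum chaperones (23 genes, 0.02, 1 and 1), heat shock chaperones (18 genes, −0.17, 0 and 7), p53 targets (21 genes, 0.07, 2 and 2), cholesterol synthesis (24 genes, 0.15, 5 and 0), the vacuolar proton pump (15 genes, 0.08, 4 and 0) and NF-κB and cytokine genes (8 genes, 0.15, 2 and 0). Of the 18 heat shock genes 14 had a difference below 0, beside 4478 of the 8632. Chac1, which degrades glutathione and is induced by ATF4, had positive changes throughout, which were 1.01 for MT∆Ecad, 0.80 for PyMT-1099 LT and 0.54 for Py2T LT, and its difference was 0.34 (adjusted p = 0.74).

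**Figure D5:**
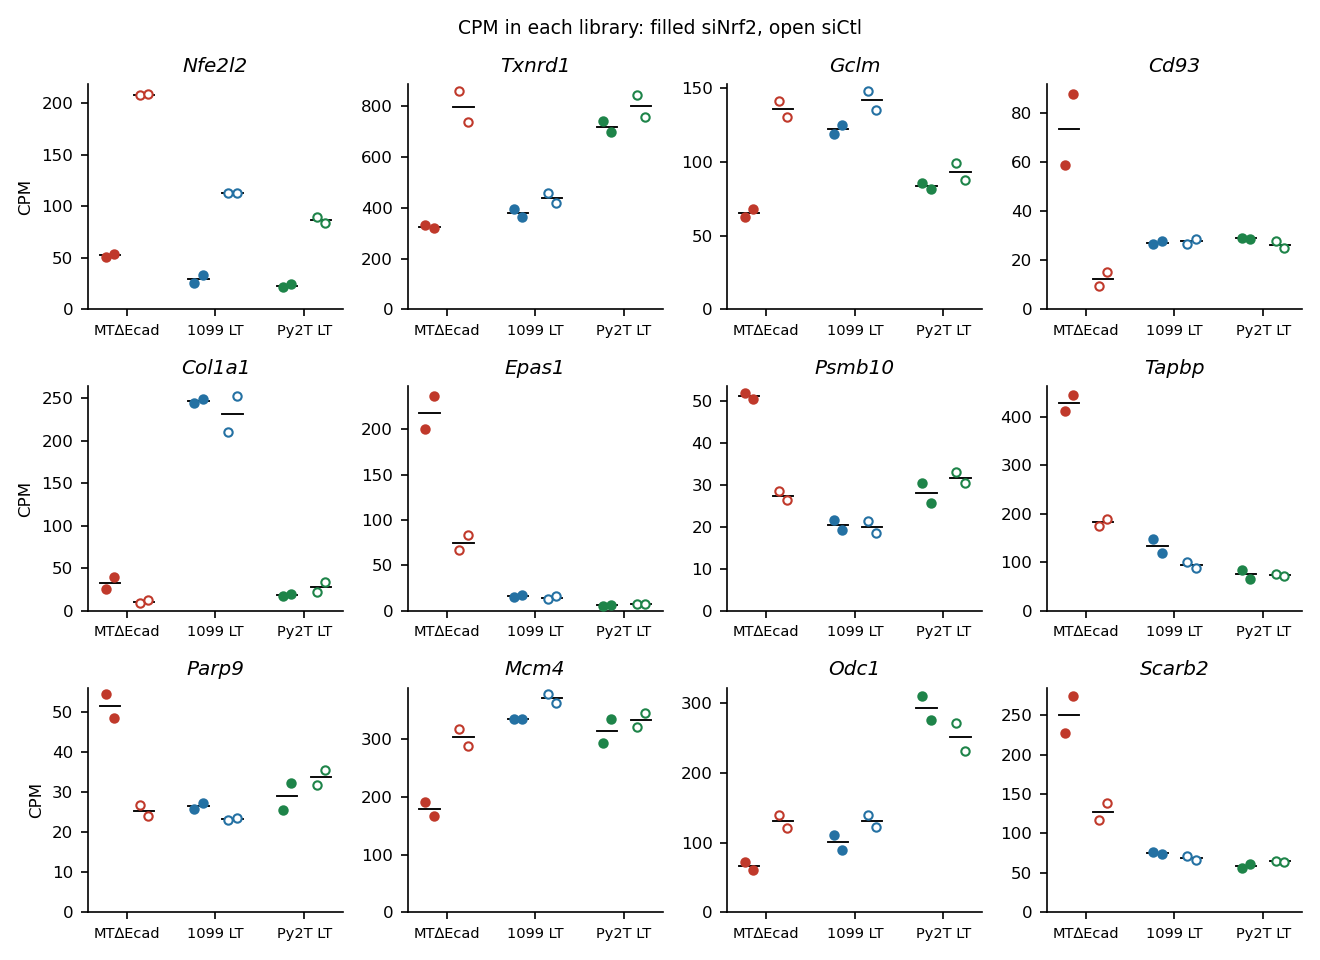
CPM in each library (vertical axes, linear and starting at 0) of 12 genes, filled points for siNrf2 left of open points for siCtl in each line, with bars at the mean of 2 libraries. Nfe2l2 is lowered in all 3 lines, while the other 11 genes differ most between the siRNAs in MT∆Ecad.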

How the data were processed

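The authors deposited CPM values for 24454 Entrez gene IDs in 12 libraries; 200 ng of total RNA went into a stranded, rRNA-depleted kit with 81 nt single reads, per the labels' protocols, and STAR and mm10 are named in the submitters' processing notes. The counting tool and its strand setting are not given in the sources used here. Symbols came from RefSeq GRCm38.p6 (24374 IDs) and GENCODE (7); 73 IDs had no match. The deposited CPM values came out as whole reads for 100% of values within 0.01 of a read, and edgeR 4.0.16 and DESeq2 1.42.0 were run on these recovered counts as alternatives. The main test was limma 3.58.1 in R 4.3.3 on log2(CPM + 1), with 6 group means, empirical Bayes with a mean trend, two-sided tests and Benjamini-Hochberg adjustment over the 12502 genes that reached a CPM of 1 in 2 or more libraries; it leaves 6 residual degrees of freedom, the paired fit 3. SE stands for the error of a log2 difference and intervals are 95%. On simulated data 190 of 200 changed genes were recovered with 10 false calls. The simulation gave all genes the same spread, all changed genes the same size of change, and no tie between same-numbered libraries. It checks the code, and its rates do not carry over to these libraries.

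Replicate numbers recur under siNrf2 and siCtl, with no word in the labels on their meaning. From their group means, deviations of same-numbered libraries correlated with r = 0.625 for MT∆Ecad, 0.778 for PyMT-1099 LT and 0.846 for Py2T LT, so the numbers were taken to pair libraries within a line. The 31 gene lists, the named genes and the genes studied were chosen with earlier results of these data known; lists were therefore only counted. Genes named are Nfe2l2, the 12 largest called differences each way, those opposite in the lines, up to 4 called genes per list, and the NRF2 targets called or with the 8 largest mean falls; others were chosen after their values were seen. Promoter motifs were searched on both strands. Alternatives changed the pairing, the test, the pseudocount, the scaling, the filters and the PyMT lines, and left out each library.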

Additional observations from a re-analysis of the deposited data

Results flagged for a closer look

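Each of these was flagged because the effect of siNrf2 differed between MT∆Ecad and the PyMT lines by the test of the difference itself (limma, adjusted p under 0.05); they are values without an explanation. The counts were 96 genes higher and 99 lower. The response differences (log2) of the genes higher in MT∆Ecad were Cd93 2.43, C1qtnf1 1.76, Slc43a2 1.71, Col1a1 1.68, Epas1 1.62, Nrep 1.5, Pdcd4 1.48, Synpo 1.40, Ephb6 1.34, Pmp22 1.32, Vdr 1.32, Tnfrsf21 1.13, Mgll 1.09, Parp9 1.01, Scarb2 0.97, Tapbp 0.96, Col5a1 0.95, Psmb10 0.94, Ltbp2 0.94, Ctso 0.94, Tapbpl 0.91, Ddx58 0.89, Ifi27 0.84, Arhgef17 0.80, Irf1 0.74, Psme2 0.72, Dtx3l 0.65, Fn1 0.65, Irgm1 0.58 and P4ha1 0.44. Those of the genes lower in MT∆Ecad were Dusp9 −1.36, Acsbg1 −1.35, Ccdc88c −1.20, Clcf1 −1.12, Txnrd1 −1.10, Dgat2 −1.10, Itga6 −1.09, Rhpn2 −1.06, Slc29a2 −0.95, Nkain1 −0.95, Pfkfb3 −0.95, Srxn1 −0.93, Odc1 −0.87, Gclm −0.86, Krt14 −0.80, Gclc −0.79, Esd −0.78, Nhp2 −0.71, Abcc1 −0.69, Nolc1 −0.68, Mybbp1a −0.67, Mcm4 −0.64, Mcm3 −0.63, Orc1 −0.61 and Pcna −0.58.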

How the results depend on the processing

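The counts of 96 higher and 99 lower differences became 857 and 1097 with the replicate block, which ended none of the 55 calls among the 59 named genes and added Fth1. They became 37 and 21 with edgeR, 26 and 22 against PyMT-1099 LT alone, 95 and 64 with TMM scaling, and 214 and 124 with genes taken by mean CPM. Leaving out single libraries gave 10 to 145 higher and 7 to 120 lower. With DESeq2 (120 and 110), a pseudocount of 0.25 (68 and 76), no filter (73 and 84) and Py2T LT alone (94 and 67) both counts stayed within 1.5 times. Of the 59 named genes edgeR ended 26 calls, PyMT-1099 LT alone 31, Py2T LT alone 7, TMM scaling 4, no filter 4, the pseudocount 2 and DESeq2 0. No called difference changed sign. Differences near 0 did: Slc7a11 was −0.02 against Py2T LT alone and −0.07 without MT∆Ecad siCtl replicate 2, and Nfe2l2 was 0.00 without PyMT-1099 LT siNrf2 replicate 2. Without single libraries Slc7a11 ran from −0.07 to 0.42 and Nfe2l2 from −0.17 to 0.00. Of the list medians of at least 0.1 in size, those that changed sign were those of epithelial genes (0.02 against Py2T LT alone) and matrix proteases (−0.01 without MT∆Ecad siNrf2 replicate 2). The median of glycolysis and hypoxia genes, 0.01, was just under 0 with DESeq2, and that of all 8632 genes, −0.01, was 0.01 with TMM and edgeR. With 2 libraries per group, a fit without a library takes the remaining one to vary like the other groups. The cause of these shifts was not tested.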

Other observations

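Of the 3870 tested genes outside the 8632, 263 had a higher called difference and 72 a lower one (limma). Genes at or near 0 in a line are among them, and these could show no response there, so the counts do not separate absence from a different response. Of the largest, chosen after their values were seen, Ogn, osteoglycin, a small matrix proteoglycan, had 98.2 and 100 CPM with siNrf2 in MT∆Ecad, against 21.7 and 21.2 CPM with siCtl, and was listed at 0 in all 8 PyMT libraries. Postn, periostin, had 137 and 196 CPM with siNrf2 against 38.8 and 42.0 CPM with siCtl in MT∆Ecad, 15.1 and 34.3 CPM against 20 and 26.9 CPM in PyMT-1099 LT, and at most 2.29 CPM in any Py2T LT library. Its difference was 2.12 (SE 0.45, adjusted p = 0.035). Mme, the peptidase neprilysin, had 131 and 145 CPM against 35.8 and 33.9 CPM in MT∆Ecad and at most 0.162 CPM in any PyMT library.

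Ackr3, an atypical chemokine receptor, was present in all lines. It had 9.74 and 14.1 CPM with siNrf2 against 1.88 and 2.69 CPM with siCtl in MT∆Ecad, 8.64 and 7.86 CPM against 8.32 and 6.68 CPM in PyMT-1099 LT, and 192 and 160 CPM against 176 and 149 CPM in Py2T LT. The difference was 1.84 (SE 0.24, adjusted p = 0.0055). Gsta1, a glutathione S-transferase, fell to 0.851 and 0.901 CPM with siNrf2 in MT∆Ecad, against 8.16 and 6.98 CPM with siCtl. It had at most 0.607 CPM in any PyMT library, where log2(CPM + 1) hardly shows a fall, and the level left with siNrf2 was 11.6% for MT∆Ecad, 27.0% for PyMT-1099 LT and 7.26% for Py2T LT. The PyMT percentages rest on at most 3 reads in each siNrf2 library, at 0.102 and 0.0561 CPM in PyMT-1099 LT and 0 and 0.0558 CPM in Py2T LT. They do not measure the depth of a fall there. Nqo1, the quinone reductase, differed by −1.04 (adjusted p = 0.0085), with changes of −1.90 for MT∆Ecad, −1.35 for PyMT-1099 LT and −0.37 for Py2T LT.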
